A study of Mus musculus with 12 samples.

Results

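The genes described here encode the proteasome and the proteins named with it: the subunits of its core and regulatory particles, its activators, an inhibitor and assembly chaperones. They were chosen by name alone, as the genes whose single symbol in the array's annotation starts with Psm, a letter from a to g and a digit. The rule found 49 of the 18193 genes that the annotation names singly, on 103 probe sets, a probe set being the group of probes that reads 1 transcript. Of these, 47 were bright enough to test, among 12136 genes tested in all. Psma8, a testis alpha subunit, and Psmb11, a thymus beta subunit, were too dim to test. Psmc3ip, a cofactor of meiotic recombination, and Psme3ip1, a partner of the activator Psme3, carry such a symbol without being proteasome subunits, and are counted apart. Psme2 shares its probe set with another symbol and was not analysed here.

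The proteasome is the large protease that breaks down proteins tagged with ubiquitin. Its core is a barrel of alpha rings, which gate the entrance, around beta rings, of which Psmb5, Psmb6 and Psmb7 carry the active sites. A regulatory particle of ATPases (Psmc genes) and non-ATPase subunits (most Psmd genes) recognises, unfolds and feeds in the substrates. Psmb8, Psmb9 and Psmb10 can take the place of the constitutive active subunits and form the immunoproteasome, which is known for making peptides for class I antigen presentation. In fat cells, as in others, the transcription factor Nfe2l1 (also called NRF1) is known to drive the subunit genes together when proteasome activity is short.

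Expression was measured on 12 single-colour Affymetrix arrays of 3T3-L1 cells, a mouse fibroblast line that becomes adipocytes when induced. Induction took 48 h, with 0.5 mM of the phosphodiesterase inhibitor IBMX, 1 µM of the glucocorticoid dexamethasone and 5 µg/ml of insulin. Cells of days 8 to 10 spent 12 h in medium with 0.2% albumin in place of serum and then received either DMSO, as the control, or berberine, an alkaloid of plants, at 5 µM. Berberine was given for 3, 6 or 12 h, and each of the 4 groups has 3 arrays. The question is which genes change with berberine over time. How long the DMSO cells were held is not given in the sources used here, so the drug and the hours in culture cannot be told apart, and all 3 berberine groups are set against the same DMSO arrays. Nothing says that the replicates were separate cultures, so p-values measure the spread between these arrays, which may be technical.

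Signals are log2 values, on which 1 unit is a doubling, and differences between groups are given on that scale with the standard error (SE) of the limma fit. A gene is called here where its limma p, after Benjamini-Hochberg adjustment over all 12136 genes, is under 0.05. On each array 47.9% to 51.6% of values lay above 5.77, called the detection threshold here. It is the median of all values, and the arrays came scaled to a common level, so this likeness was largely fixed in advance. Array pairs correlated at 0.910 to 0.924 within groups and 0.907 to 0.923 between them. Adipocyte genes were clearly expressed, with 8 of 8 tested markers (such as Adipoq, Fabp4 and Lpl) above the threshold on all 12 arrays. Of these 8, 1 fell at 3 h, 4 rose and 3 fell at 6 h, and 1 rose and 4 fell at 12 h. Of all genes, 1.9% were called at 3 h, 7.24% rose and 6.98% fell at 6 h, and 13.7% rose and 14.6% fell at 12 h. Cidec read 13.76, 13.59 and 13.81 in DMSO and 12.20, 12.40 and 12.26 at 12 h. Lipe went from 11.82 to 11.88 in DMSO to 10.87 to 11.09 at 12 h. The log2 of the summed signal of the 8, in which the brightest genes weigh most, was 17.10 to 17.45 in DMSO and 17.28 to 17.40 at 12 h. The part of these changes in those of proteasome genes was not tested. Fibroblast markers were above the threshold too, 7 of 7. None was called at 3 h, 2 rose and 2 fell at 6 h, and 1 rose and 2 fell at 12 h, beside the same shares of all genes. The macrophage markers Ptprc and Itgam stayed under that threshold on every array and Adgre1 on all but 2. Of the other 3, Csf1r reached it on 12 arrays, Lyz2 on 11 and Cd68 on 10. Proteasome genes were bright on the probe set that stood for each gene, which was chosen mainly for a high mean signal. None of those values fell below 8.29, and the median of their mean signals was 12.12 against 9.08 over all genes tested. Other kept probe sets of these genes read lower, such as 1.35 for a Psmc2 probe set on berberine 6 h replicate 2.

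Berberine left most proteasome genes close to their DMSO level, and the changes that passed the test went both ways. At 3 h none of the 47 was called by limma, against 1.9% of all genes, and 2 of them (Psma1 and Psmd12) had an unadjusted p under 0.05, against 13.6% of all genes. At 6 h 4 were called (8.51%), against 14.2% of all genes: Psmb9, Psmc6 and Psmd4 rose (6.38%, against 7.24% of all genes) and Psmd3 fell (2.13%, against 6.98%). At 12 h 11 were called (23.4%), against 28.2% of all genes. Among them Psma4, Psmb7, Psmb9, Psmb10, Psmc2, Psmc6, Psmd8 and Psme3 rose (17%, against 13.7% of all genes), and Psma1, Psmd1 and Psmd6 fell (6.38%, against 14.6%). These shares lie near those of all genes or below them. The number called at 6 h dropped from 4 to 1 without DMSO replicate 1 or berberine 6 h replicate 3, and to 2 without DMSO replicate 3, berberine 3 h replicate 2 or berberine 6 h replicate 1. With each array centred on its median it was 4 rises and no fall, since Psmd3 was lost (adjusted p = 0.0517), and with quantile normalization 4 rises and 2 falls. Genes with all berberine arrays above or all below the DMSO arrays numbered 5 at 3 h (10.6%, against 19% of all genes), 16 at 6 h (34%, against 29.9%) and 19 at 12 h (40.4%, against 39.4%). Since whole cultures were measured, a lower share of cells that express a gene and less of its RNA per cell cannot be told apart.

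The changes were small. The median difference from DMSO over the 47 genes was 0.01 at 3 h, 0.04 at 6 h and 0.03 at 12 h, beside 0.02, 0.01 and -0.01 over all genes. With the mean of the kept probe sets it was -0.026 at 3 h, -0.013 at 6 h and -0.041 at 12 h, so its sign turned. With 1 array left out it ranged from -0.01 (without berberine 3 h replicate 2) to 0.03 (without berberine 3 h replicate 3) at 3 h, from 0.027 (without berberine 6 h replicate 2) to 0.073 (without DMSO replicate 3) at 6 h, and from 0.019 (without berberine 12 h replicate 2) to 0.078 (without berberine 12 h replicate 3) at 12 h. The median size of the difference, whatever its sign, was 0.049 at 3 h, 0.107 at 6 h and 0.121 at 12 h, beside 0.128, 0.180 and 0.237 over all genes. Differences of at least 0.5 were seen at 12 h for Psmb9 and Psma1 (4.26% of the 47) and for 20.5% of all genes. At 3 h and 6 h no proteasome gene reached 0.5, while 9.72% and 13.5% of all genes did. For the uncalled genes, the 95% interval of the difference lay within 0.5 of zero for 46 of 47 at 3 h, 41 of 43 at 6 h and 34 of 36 at 12 h, and within 0.25 for 32, 23 and 22 of them. Most differences called at 12 h were themselves under 0.5, so changes of that size are not bounded out for many uncalled genes. The exceptions to the wider bound were Psmb9 at 3 h and Psmb8 and Psmg3 at the later times. The proteasome genes were also measured more tightly than most: the median SE at 12 h was 0.070 for proteasome genes against 0.125 for all genes. How much of their smaller differences comes from this tighter measurement was not tested.

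**Figure D1:**
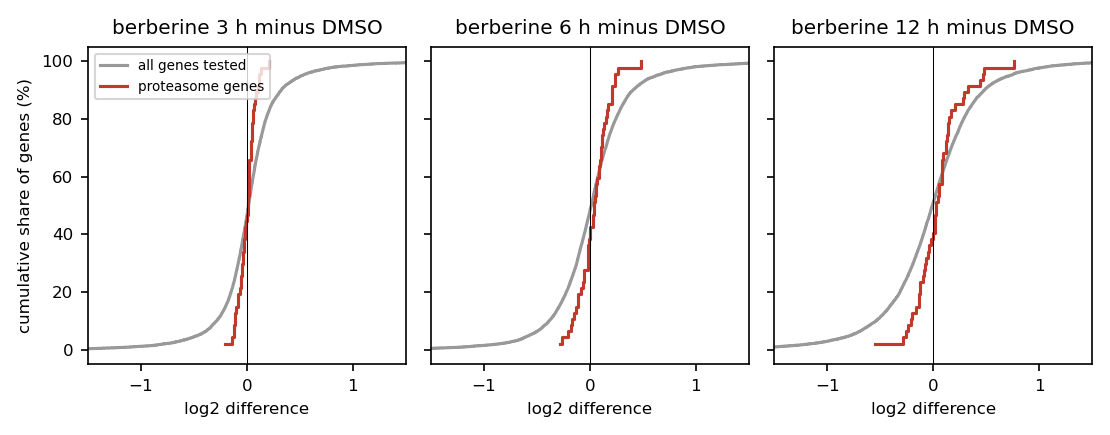
Cumulative share of genes (%) against the log2 difference from DMSO at 3, 6 and 12 h of berberine, for the 47 proteasome genes and all 12136 genes tested; values beyond 1.5 in either direction are not drawn. The proteasome curve is steeper around 0 at each time, as the median sizes of 0.049, 0.107 and 0.121 against 0.128, 0.180 and 0.237 state. The proteasome genes also had a smaller median SE at 12 h (0.070 against 0.125), and its part in the steeper curve was not tested.

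**Figure D2:**
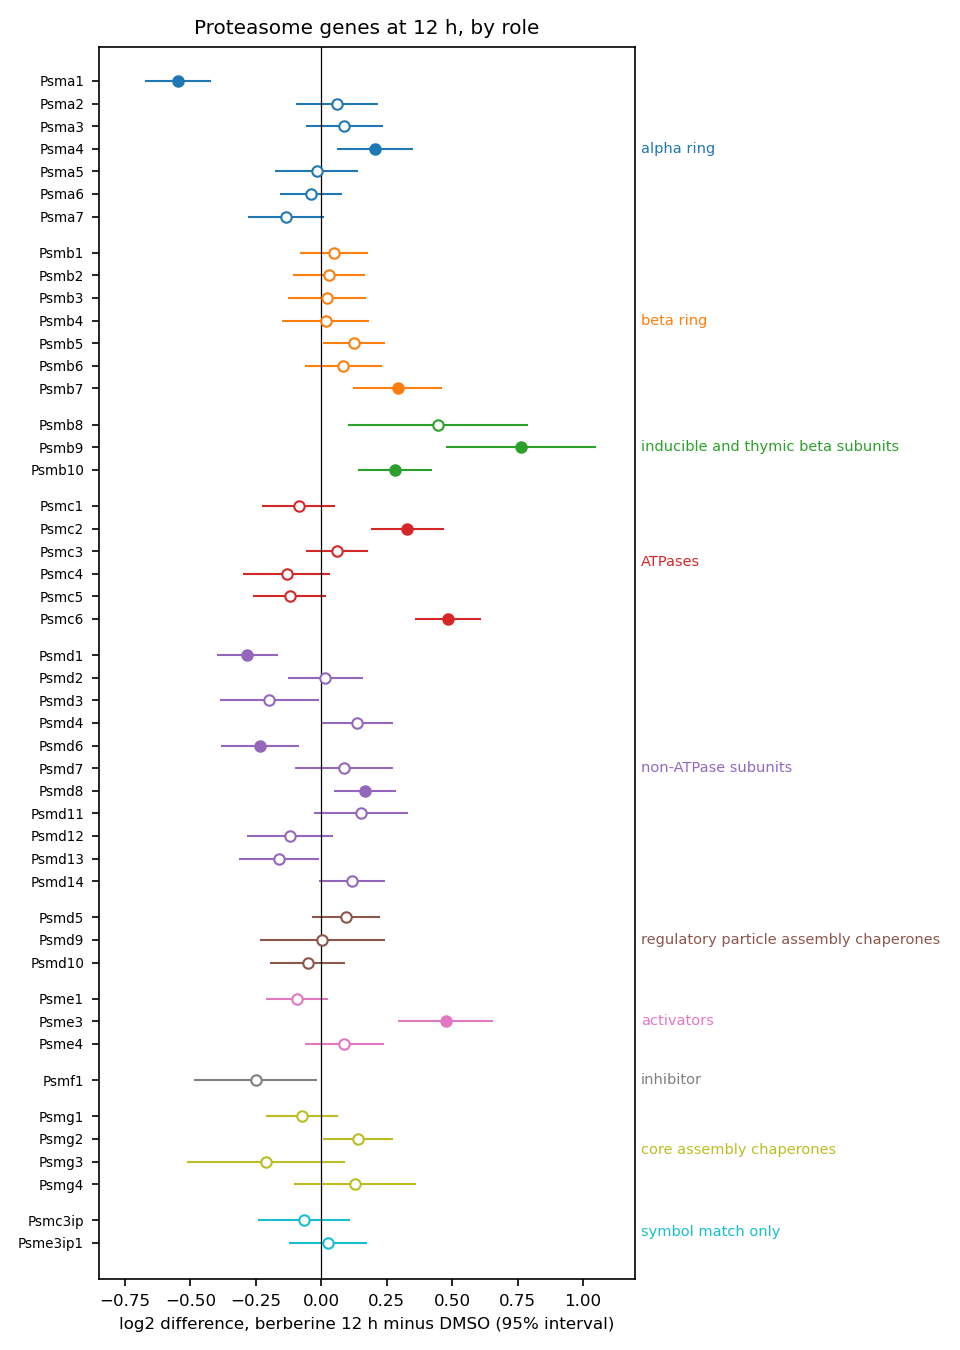
Log2 difference between berberine 12 h and DMSO for each of the 47 tested genes by role, with 95% intervals from limma; filled points are called at an adjusted p under 0.05 and open points are not. The called genes lie on both sides of 0, from -0.55 for Psma1 to 0.76 for Psmb9.

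The inducible catalytic subunits held the gene that rose most. Of the 3 tested, 2 rose at 12 h (Psmb9 and Psmb10) and Psmb8 narrowly missed the threshold. Of all genes, 7.24% rose and 6.98% fell at 6 h, and 13.7% rose and 14.6% fell at 12 h. The role groups here and below are small, so their counts describe single genes and not a role. Of the 7 constitutive beta subunits, 1 rose (Psmb7) and 6 were not called, with differences from 0.02 for Psmb4 to 0.13 for Psmb5.

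Psmb9, the inducible partner of Psmb6, had log2 signals of 8.36, 8.45 and 8.41 on the DMSO arrays. They were 8.29, 8.83 and 8.74 at 3 h, 8.93, 8.67 and 9.05 at 6 h, and 9.10, 9.18 and 9.22 at 12 h. The 3 h arrays overlapped the DMSO arrays, while every 6 h and 12 h array lay above all of them. The difference was 0.21 ± 0.14 (SE, n = 3 a group) at 3 h (adjusted p = 0.541), 0.48 ± 0.14 at 6 h (1.39-fold higher, adjusted p = 0.0263) and 0.76 ± 0.14 at 12 h (1.70-fold higher, adjusted p = 0.000418). The 6 h call was lost without DMSO replicate 1 (adjusted p = 0.0851), DMSO replicate 3 (0.0582), berberine 6 h replicate 1 (0.0732) or berberine 6 h replicate 3 (0.110), and the 12 h call under none of the 21 alternatives tried. Psmb9 has 1 probe set, so the alternative that takes the mean of the probe sets could not change its difference. Macrophages also make this subunit, although the samples were cultures of a fibroblast line and the labels name only 3T3-L1 cells. Of 6 macrophage markers, 3 passed the filter and none of these was called at any time. They were dim, at 4.89 to 7.06 for Cd68, 6.99 to 7.63 for Csf1r and 5.67 to 7.08 for Lyz2. The log2 of the summed signal of all 6 was 8.42 to 8.63 in DMSO, 8.50 to 8.77 at 3 h, 8.56 to 8.96 at 6 h and 8.26 to 8.75 at 12 h. Whether macrophages had a part in the Psmb9 signal was not tested.

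Psmb8, the inducible partner of Psmb5, read 9.30, 9.53 and 9.56 in DMSO, 9.44, 9.60 and 9.67 at 3 h, 9.68, 9.50 and 9.91 at 6 h, and 9.76, 10.41 and 9.56 at 12 h. A single 12 h array stood far above the others, and the lowest 12 h array lay within the DMSO range. The 12 h difference was 0.45 ± 0.16 (95% interval 0.10 to 0.79, adjusted p = 0.0504), and it passed the test without berberine 12 h replicate 3 (0.62, adjusted p = 0.00905), berberine 6 h replicate 2 (0.0492) or berberine 6 h replicate 3 (0.0487). It also passed with all 12 arrays in, under a stricter filter that asks for the detection threshold on all 12 (0.0396), with each array centred on its median (0.0482) and with the replicate number as a block (0.0487). Its second, dim probe set, which ends in _x_at, differed by -0.54.

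Psmb10, the inducible partner of Psmb7, read 10.87, 10.94 and 10.99 in DMSO, between 10.97 and 11.09 at 3 h, 11.13, 11.07 and 11.07 at 6 h, and 11.25, 11.29 and 11.11 at 12 h. All 6 h and 12 h arrays lay above the DMSO arrays. The rise passed the test at 12 h, at 0.28 ± 0.07 (1.22-fold higher, adjusted p = 0.00407), and not at 6 h, at 0.15 (adjusted p = 0.143).

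Among the constitutive partners Psmb7, which cuts after basic residues, read 10.73, 10.68 and 10.96 in DMSO, 10.89, 10.75 and 10.79 at 3 h, 11.06, 10.91 and 11.12 at 6 h and 11.01, 11.10 and 11.13 at 12 h, the last not overlapping DMSO. It rose by 0.29 ± 0.08 (1.22-fold, adjusted p = 0.0117), and lost the call without DMSO replicate 1 (adjusted p = 0.0514) or DMSO replicate 2 (0.0564). Its 6 h difference was 0.24 (adjusted p = 0.0574), which passed the test without DMSO replicate 3 (0.0152) or berberine 6 h replicate 2 (0.0385), and on all arrays under the stricter filter (0.0431), quantile normalization (0.0497), centring (0.0444) and the replicate block (0.0429). Psmb5, which cuts after hydrophobic residues, read 12.67, 12.64 and 12.67 in DMSO, 12.70, 12.70 and 12.61 at 3 h, 12.67, 12.74 and 12.77 at 6 h and 12.83, 12.82 and 12.71 at 12 h. Its difference of 0.13 ± 0.06 was not called (adjusted p = 0.106), although no 12 h array overlapped the DMSO arrays. Psmb6, which cuts after acidic residues, read 12.72, 12.69 and 12.67 in DMSO, 12.74, 12.65 and 12.61 at 3 h, 12.68, 12.86 and 12.88 at 6 h and 12.77, 12.91 and 12.66 at 12 h, overlapping DMSO, at a difference of 0.08 ± 0.07 (adjusted p = 0.425).

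Within each array, the Psmb9 signal relative to Psmb6 was set against its DMSO value. It was higher by 0.24 at 3 h (exact permutation test, two-sided, p = 0.4), 0.37 at 6 h (p = 0.1) and 0.68 at 12 h (1.60-fold, p = 0.1), where 0.1 is the smallest p that 3 arrays against 3 can give. All 3 arrays lay above all DMSO arrays at 6 h and at 12 h. Psmb8 relative to Psmb5 differed by 0.32 at 12 h (exact p = 0.4), and Psmb10 relative to Psmb7 by -0.01 (exact p = 1). In the last pair both partners rose by a like amount. These ratios come from different probe sets, so only their change between groups can be read.

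**Figure D3:**
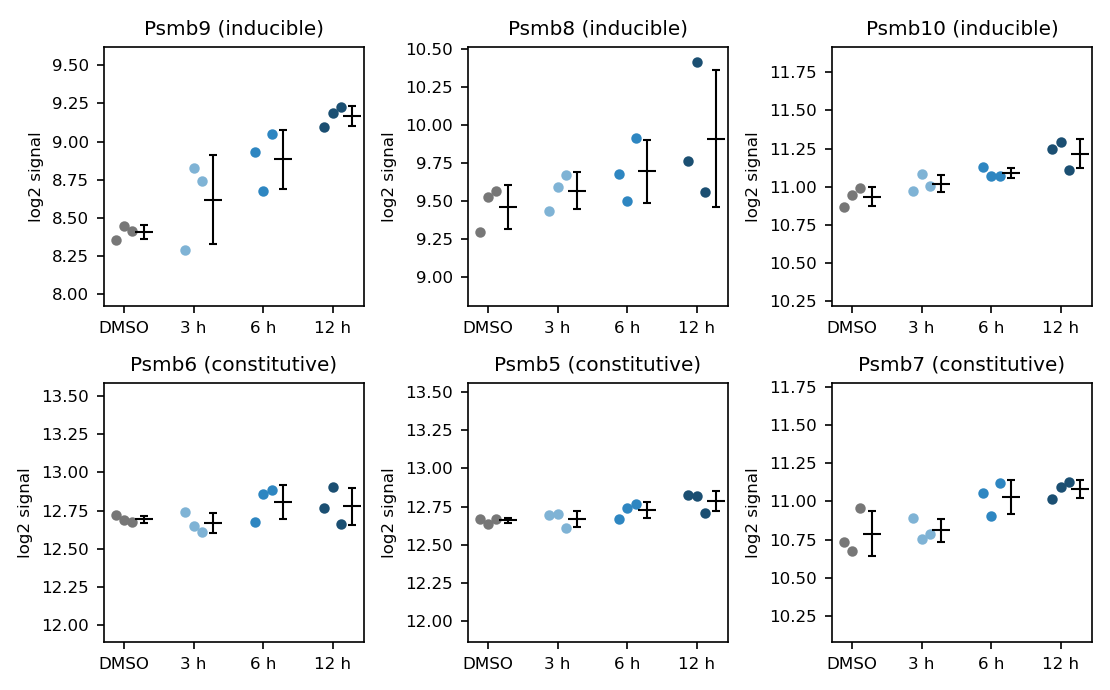
Log2 signal on each of the 3 arrays of each group (points), with the mean and SD (bar), for the inducible subunits in the upper row and the constitutive partner below each; every panel spans the same log2 range. Psmb9 went from 8.36 to 8.45 in DMSO to 9.10 to 9.22 at 12 h, and the 12 h points of Psmb8 spread from 9.56 to 10.41.

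Psmb9 and Tap1, which encodes a subunit of the peptide transporter of class I antigen presentation, start back to back, and the gene order there is Psmb9, Tap1, Psmb8, Tap2. The stretch between their start sites is shown because both genes rose in these arrays. In RefSeq's GRCm38.p6 build it covers chr17:34187331-34187555, 225 bases, given here on the minus strand, which is that of Psmb9, so that Psmb9 starts at the right end. Capitals mark the only CCAAT box, a general promoter element that lies here in reverse as ATTGG, 8 bases before the Psmb9 start.
Psmb9 and Tap1: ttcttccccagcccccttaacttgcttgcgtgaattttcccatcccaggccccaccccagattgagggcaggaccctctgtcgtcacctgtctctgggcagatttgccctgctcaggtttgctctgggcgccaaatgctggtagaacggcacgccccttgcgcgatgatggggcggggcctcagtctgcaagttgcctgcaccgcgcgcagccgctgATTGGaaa

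Tap1 read 8.10, 8.11 and 8.33 in DMSO, 8.36, 8.72 and 8.56 at 3 h, 8.68, 8.57 and 8.79 at 6 h and 8.91, 8.90 and 9.04 at 12 h. It was 0.50 higher at 6 h (1.41-fold, adjusted p = 0.0114) and 0.77 ± 0.12 higher at 12 h (1.70-fold, adjusted p = 0.000147), beside 0.48 and 0.76 for Psmb9. Of the 10 tested genes of class I antigen processing and its regulators, a list of 11, 1 rose at 3 h, 3 at 6 h and 5 at 12 h, and none fell; their median 12 h difference was 0.19, against -0.01 over all genes. Of all genes, 7.24% rose at 6 h, and 13.7% rose and 14.6% fell at 12 h. Besides Tap1, the largest 12 h differences were those of Erap1, which trims peptides in the endoplasmic reticulum (0.37, 1.29-fold higher, adjusted p = 0.0107), and of Irf1, an interferon-regulated transcription factor (0.32, 1.25-fold higher, adjusted p = 0.00132). Irf1 was also called at 3 h (0.33, adjusted p = 0.0113) and at 6 h (0.21, adjusted p = 0.0368). Its 3 h call was lost under 3 of 21 alternatives tried and its 6 h call under 8. The Erap1 call was lost without DMSO replicate 3 (adjusted p = 0.0535) and with the mean of its probe sets (0.0933).

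The alpha ring held the gene that fell most. Of the 7 tested alpha subunits at 12 h, 1 rose (Psma4), 1 fell (Psma1) and 5 were not called, with differences from -0.13 for Psma7 to 0.09 for Psma3. None was called at 3 h or 6 h, apart from Psma1 under other settings named with its values.

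Psma1 read 14.22, 14.11 and 14.15 in DMSO, 13.98, 14.09 and 14.00 at 3 h, 13.86, 14.08 and 14.00 at 6 h, and 13.61 on all 3 arrays at 12 h. Every berberine array lay below every DMSO array. The difference was -0.14 ± 0.06 at 3 h (adjusted p = 0.312), -0.18 ± 0.06 at 6 h (adjusted p = 0.0547) and -0.55 ± 0.06 at 12 h (1.46-fold lower, adjusted p = 2.91e-06). At 6 h it passed the test with quantile normalization (-0.29, adjusted p = 0.00214), with the mean of its kept probe sets (-0.61, adjusted p = 0.0477) or without berberine 6 h replicate 2 (adjusted p = 0.0341). Its other 3 probe sets, all dimmer, differed by -1.13 (adjusted p = 3.96e-05), -1.35 (0.0471) and -0.07 (0.943) at 12 h with each probe set tested on its own, the last at a mean signal of 5.55, below the detection threshold. The probe set at -1.35 ends in _x_at, a kind used here only where no other was kept. Psma4 read 12.76 to 12.89 in DMSO and 12.92 to 13.12 at 12 h, and its rise of 0.21 ± 0.07 (1.15-fold, adjusted p = 0.0320) was lost without DMSO replicate 1 (0.119), DMSO replicate 2 (0.0775), berberine 12 h replicate 1 (0.0692) or berberine 12 h replicate 2 (0.155).

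Of the 6 ATPases of the regulatory particle, which unfold substrates, 2 rose at 12 h (Psmc2 and Psmc6) and 4 were not called, with differences from -0.13 for Psmc4 to 0.06 for Psmc3. At 6 h Psmc6 alone of them was called.

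Psmc6 read 12.51, 12.54 and 12.45 in DMSO, 12.57, 12.60 and 12.44 at 3 h, 12.72, 12.81 and 12.78 at 6 h, and 12.95, 13.06 and 12.95 at 12 h. The 3 h arrays overlapped DMSO, the 6 h arrays lay above both, and the 12 h arrays above all others. The difference was 0.04 at 3 h (adjusted p = 0.856), 0.27 ± 0.06 at 6 h (1.21-fold higher, adjusted p = 0.00579) and 0.48 ± 0.06 at 12 h (1.40-fold higher, adjusted p = 9.57e-06). The rise was in the brightest probe set only: the other 2, with mean signals of 10.8 and 7.94, differed by -0.20 and -0.38 at 12 h, neither called, and the mean of the 3 differed by -0.07 at 6 h (adjusted p = 0.729) and -0.03 at 12 h (0.845). The probe sets of this gene thus disagree in direction.

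Psmc2 read 12.55 to 12.79 in DMSO and 12.90 to 13.03 at 12 h, without overlap, and rose by 0.33 ± 0.07 (1.26-fold, adjusted p = 0.00113). A second bright probe set of Psmc2 differed by 0.37 (adjusted p = 3.20e-05 with each probe set tested on its own). That probe set ends in _x_at, a kind used here only where no other was kept. The dimmest, at a mean signal of 4.18 below the detection threshold, differed by -0.86, and the mean of the 3 by -0.05 (adjusted p = 0.941).

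Of the 11 non-ATPase subunits of the regulatory particle, Psmd4 rose and Psmd3 fell at 6 h. At 12 h Psmd8 rose, Psmd1 and Psmd6 fell, and 8 were not called, with differences from -0.20 for Psmd3 to 0.15 for Psmd11. Of the 5 kept probe sets of Psmd11 only 2 differed in that direction. Another differed by -0.20 (adjusted p = 0.0486 with each probe set tested on its own). Psmd14, the enzyme that removes ubiquitin chains from substrates, differed by 0.12 (adjusted p = 0.166).

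Psmd1, a large scaffold subunit, read 12.57, 12.51 and 12.63 in DMSO, 12.43, 12.54 and 12.49 at 3 h, 12.38, 12.46 and 12.42 at 6 h, and 12.30, 12.30 and 12.28 at 12 h. The 6 h and 12 h arrays lay below all DMSO arrays. The fall was 1.22-fold at 12 h (-0.28 ± 0.06, adjusted p = 0.000927), and the 6 h difference of -0.15 ± 0.06 was not called (adjusted p = 0.0810) except with quantile normalization (-0.16, adjusted p = 0.0397).

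Psmd6, a subunit of the lid, read 12.84, 12.95 and 12.87 in DMSO, 12.82, 12.77 and 12.71 at 3 h, 12.74, 12.71 and 12.94 at 6 h and 12.67, 12.75 and 12.52 at 12 h, the last not overlapping DMSO. It fell 1.18-fold (-0.23 ± 0.07, adjusted p = 0.0198), and its second probe set differed by -0.27 (adjusted p = 0.00877 with each probe set tested on its own). The call was lost without DMSO replicate 2 (adjusted p = 0.0700) or berberine 12 h replicate 3 (0.102). Psmd8, another lid subunit, read 12.07 to 12.11 in DMSO and 12.21 to 12.31 at 12 h. Its rise of 0.17 ± 0.06 (1.12-fold, adjusted p = 0.0330) was lost without any single DMSO array (adjusted p = 0.0631, 0.0787 and 0.0595 without replicates 1, 2 and 3), berberine 12 h replicate 2 (0.124) or berberine 12 h replicate 3 (0.0641).

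The 6 h calls of this group were borderline. Psmd4, a ubiquitin receptor, read 11.76, 11.79 and 11.80 in DMSO, 11.95, 11.92 and 11.82 at 3 h, 12.01, 11.93 and 12.03 at 6 h, and 11.96, 12.00 and 11.80 at 12 h. Every berberine array lay above every DMSO array, the lowest 12 h array only just. The 6 h rise was 0.21 ± 0.06 (1.15-fold, adjusted p = 0.0385), and the 12 h difference 0.14 (adjusted p = 0.121). The 6 h call was lost without DMSO replicate 1 (adjusted p = 0.112), 2 (0.0683) or 3 (0.0666), berberine 3 h replicate 2 (0.0515), or berberine 6 h replicate 1 (0.0947), 2 (0.0511) or 3 (0.120). It was lost under 11 of 21 alternatives, among them the mean of its probe sets (0.14, adjusted p = 0.118) and no filter (0.0517). The 12 h difference passed without berberine 12 h replicate 3 (0.0337).

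Psmd3, a lid subunit, read 10.74, 10.49 and 10.78 in DMSO, 10.57, 10.62 and 10.65 at 3 h, 10.47, 10.41 and 10.27 at 6 h, and 10.63, 10.41 and 10.38 at 12 h. The 6 h arrays lay below DMSO and the 12 h arrays overlapped it. The 6 h fall was 1.22-fold (-0.29 ± 0.09, adjusted p = 0.0396), and the 12 h difference was -0.20 (adjusted p = 0.112). The 6 h call was lost without DMSO replicate 1 (adjusted p = 0.144) or 3 (0.148), berberine 3 h replicate 2 (0.0518), or berberine 6 h replicate 2 (0.0811) or 3 (0.152). It was lost under 10 of 21 alternatives, among them quantile normalization (adjusted p = 0.0615). The 12 h difference passed without DMSO replicate 2 (0.0255) or berberine 12 h replicate 1 (0.0397).

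Of the 3 activators measured, which open the core in place of the regulatory particle, Psme3 rose at 12 h and Psme1 and Psme4 were not called. Psme3, a nuclear activator that needs neither ubiquitin nor ATP, read 9.57, 9.37 and 9.58 in DMSO, 9.54, 9.41 and 9.43 at 3 h, 9.63, 9.70 and 9.83 at 6 h, and 9.96, 10.02 and 9.98 at 12 h. The 6 h and 12 h arrays lay above all DMSO arrays. The difference was 0.21 ± 0.09 at 6 h (adjusted p = 0.119) and 0.47 ± 0.09 at 12 h (1.39-fold higher, adjusted p = 0.000495). Its second kept probe set, at a mean signal of 6.84, differed by -0.16, and the mean of both was not called (0.16, adjusted p = 0.363). Psme1, the interferon-inducible activator, read 12.67, 12.67 and 12.71 in DMSO, 12.58, 12.70 and 12.67 at 3 h, 12.60, 12.66 and 12.72 at 6 h and 12.57, 12.62 and 12.57 at 12 h, all below DMSO, at a difference of -0.09 ± 0.06 (95% interval -0.21 to 0.02, adjusted p = 0.242). Psme4 differed by 0.09 (adjusted p = 0.412).

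Psmf1, an inhibitor of the core particle in the test tube, read 9.23, 9.27 and 8.96 in DMSO, 9.12, 9.20 and 9.03 at 3 h, 8.95, 8.92 and 8.79 at 6 h, and 9.05, 8.88 and 8.77 at 12 h. Its differences of -0.26 at 6 h (adjusted p = 0.136) and -0.25 ± 0.11 at 12 h (adjusted p = 0.108) were not called, and the latter passed without DMSO replicate 3 (0.0383). Its other 3 probe sets differed by 0.29, -0.04 and 0.04 at 12 h.

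None of the 7 dedicated assembly chaperones was called at any time, apart from Psmg2 under another setting named with its values. Psmg1 and Psmg2 together build the alpha ring. Psmg1 read 11.59, 11.65 and 11.56 in DMSO, 11.62, 11.70 and 11.61 at 3 h, 11.58, 11.71 and 11.63 at 6 h and 11.60, 11.57 and 11.41 at 12 h (-0.07, adjusted p = 0.455). Psmg2 read 11.14, 11.23 and 11.17 in DMSO, 11.11, 11.14 and 11.21 at 3 h, 11.15, 11.18 and 11.31 at 6 h and 11.29, 11.30 and 11.36 at 12 h (0.14, adjusted p = 0.116), where all arrays lay above DMSO. The second kept probe set of Psmg2 differed by 0.26 at 12 h, and the mean of both passed the test (0.20, adjusted p = 0.042). Psmg3 and Psmg4, another pair for the alpha ring, varied more between replicates. Psmg3 read 9.55, 9.79 and 9.86 in DMSO, 9.86, 9.46 and 9.70 at 3 h, 9.80, 9.39 and 9.38 at 6 h and 9.72, 9.22 and 9.63 at 12 h (-0.21, adjusted p = 0.307). Psmg4 read 10.15, 10.56 and 10.44 in DMSO, 10.37, 10.41 and 10.41 at 3 h, 10.75, 10.62 and 10.40 at 6 h and 10.65, 10.56 and 10.31 at 12 h (0.13, adjusted p = 0.436). Of the chaperones that build the regulatory particle, Psmd5 had the largest 12 h difference, with 10.86, 10.79 and 10.93 in DMSO, 10.90, 10.92 and 10.94 at 3 h, 10.87, 10.89 and 10.91 at 6 h and 10.95, 11.01 and 10.91 at 12 h (0.09, adjusted p = 0.297), and Psmd9 and Psmd10 differed by 0.00 and -0.05. The genes that share only the symbol were not called either: Psmc3ip, with 10.44, 10.23 and 10.34 in DMSO, 10.24, 10.29 and 10.11 at 3 h, 10.05, 10.15 and 10.30 at 6 h and 10.20, 10.30 and 10.31 at 12 h, differed by -0.07 (adjusted p = 0.621), and Psme3ip1 by 0.03.

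**Figure D4:**
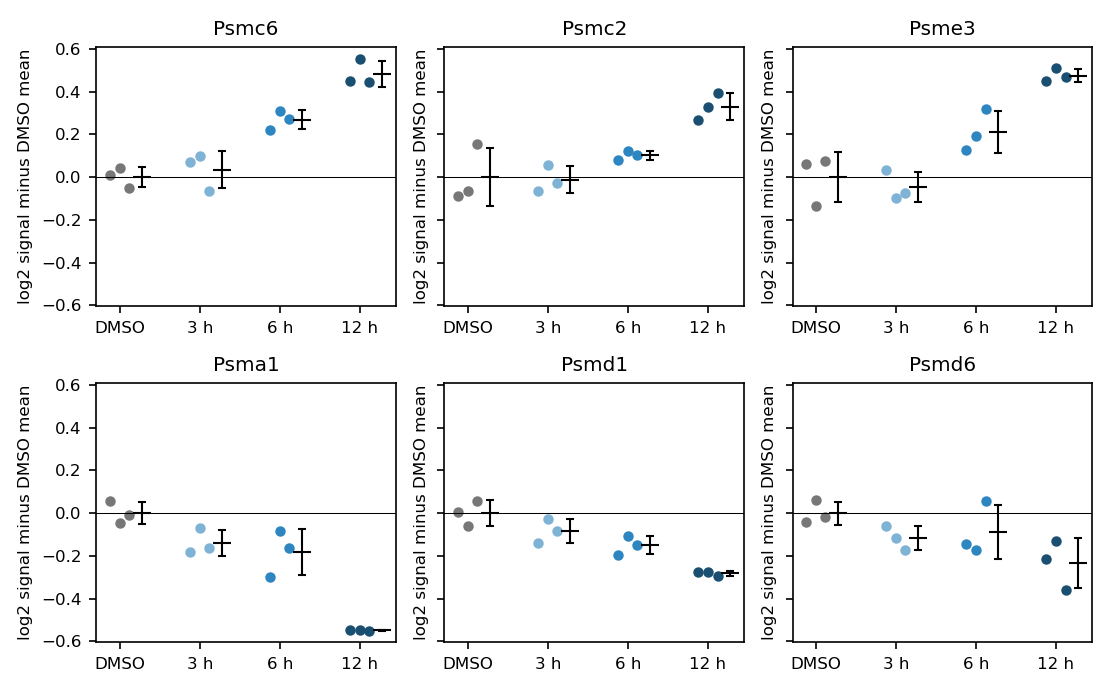
Log2 signal minus the gene's DMSO mean on each array (points), with the mean and SD (bar), for 3 genes that rose at 12 h (Psmc6, Psmc2 and Psme3, upper row) and 3 that fell (Psma1, Psmd1 and Psmd6, lower row). The 12 h points lie clear of the DMSO points in all 6 panels, at mean differences of 0.48, 0.33, 0.47, -0.55, -0.28 and -0.23.

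Between berberine times, few proteasome genes differed. From 3 h to 6 h 1 was called (2.13%, against 2.34% of all genes), namely Psmc6. From 6 h to 12 h 2 were called (4.26%, against 5.69%): Psmc6 rose and Psma1 fell. From 3 h to 12 h 7 were called (14.9%, against 17.7%): Psmb7, Psmb9, Psmc2, Psmc6 and Psme3 rose, and Psma1 and Psmd1 fell. A moderated F test over the 3 comparisons with DMSO called 8 of the 47 (17%, against 25.1% of all genes), and these were Psmb10 and the 7 genes just named.

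Nfe2l1 and Zfand5, which act on the proteasome from outside, rose at 12 h by 0.85 and 1.17, beside at most 0.76 for any proteasome gene. Of 9 tested genes in a list of 10 for NRF1, its partners and its processing, 1 rose at 3 h, 2 rose and 1 fell at 6 h, and 4 rose and 1 fell at 12 h, where 7.24% of all genes rose and 6.98% fell at 6 h, and 13.7% rose and 14.6% fell at 12 h. The median difference of the 9 was 0.26 at 12 h, beside 0.03 for the proteasome genes and -0.01 for all genes. The gene of this list that fell at 12 h was Vcp. Vcp read 12.95, 12.90 and 13.18 in DMSO and 12.70, 12.69 and 12.71 at 12 h.

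Nfe2l1 read 11.48, 11.23 and 11.50 in DMSO, 11.73, 11.68 and 11.70 at 3 h, 12.00, 11.82 and 11.95 at 6 h, and 12.23, 12.25 and 12.28 at 12 h. Every berberine array lay above every DMSO array, and each time above the one before. It was 0.52 ± 0.07 higher at 6 h (1.44-fold, adjusted p = 0.000118) and 0.85 ± 0.07 higher at 12 h (1.80-fold, adjusted p = 1.42e-07). The 3 h difference of 0.30 (adjusted p = 0.0398) was lost without DMSO replicate 1 (0.0637) or 2 (0.123), any single 3 h array (0.138, 0.111 and 0.103 without replicates 1, 2 and 3), berberine 6 h replicate 3 (0.0519), or berberine 12 h replicate 1 (0.0540) or 2 (0.0552). Its call was lost under 12 of 21 alternatives. These included the mean of its probe sets (adjusted p = 0.0634), centring (0.0549), no intensity trend (0.158) and only the 2 groups compared (0.0872). These are RNA levels; NRF1 is known to be controlled largely by cleavage and breakdown of its protein, which arrays do not show.

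Nfe2l2 (NRF2), the related factor of the antioxidant response, read 11.59, 11.58 and 11.59 in DMSO, 11.67, 11.81 and 11.76 at 3 h, 12.05, 12.17 and 11.99 at 6 h and 12.06, 12.28 and 12.18 at 12 h, 0.59 ± 0.07 higher (1.50-fold, adjusted p = 4.72e-06). Mafg, a small Maf protein that pairs with both on DNA, read 9.10, 9.12 and 9.09 in DMSO, 9.15, 9.52 and 9.23 at 3 h, 9.29, 9.15 and 9.34 at 6 h and 9.65, 9.59 and 9.73 at 12 h, 0.55 higher (1.47-fold, adjusted p = 0.000508); with the mean of its probe sets the difference was 0.30 and was not called (adjusted p = 0.111).

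Of 17 tested proteasome-associated and assembly factors outside the naming rule, in a list of 20, 1 rose at 3 h, 3 at 6 h, and 5 rose and 1 fell at 12 h; their median 12 h difference was 0.05, against -0.01 over all genes, with the shares of all genes as above. Zfand5, a zinc finger protein that binds the proteasome and speeds it up, read 12.31, 12.13 and 12.42 in DMSO, 12.81, 12.81 and 12.82 at 3 h, 12.99, 13.18 and 13.17 at 6 h, and 13.42, 13.44 and 13.52 at 12 h. It was higher than DMSO by 0.53 at 3 h (adjusted p = 0.000495), 0.83 at 6 h (adjusted p = 8.97e-07) and 1.17 ± 0.07 at 12 h (2.25-fold, adjusted p = 4.06e-09), with no overlap at any time. Txnl1, a thioredoxin-like protein of the regulatory particle, read 13.16, 13.04 and 13.07 in DMSO, 13.18, 13.13 and 13.08 at 3 h, 13.21, 13.37 and 13.43 at 6 h and 13.70, 13.69 and 13.66 at 12 h, 0.59 higher (1.51-fold, adjusted p = 1.41e-06). Akirin2, which carries proteasomes into the nucleus, read 11.80, 11.79 and 11.63 in DMSO, 11.79, 11.88 and 11.92 at 3 h, 12.06, 11.97 and 12.08 at 6 h and 12.13, 12.18 and 12.23 at 12 h, 0.44 higher (1.36-fold, adjusted p = 4.87e-05).

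Pomp, the chaperone that completes the core particle, fell at 12 h, from 13.00, 13.01 and 13.11 in DMSO, 13.04, 13.03 and 12.86 at 3 h and 12.94, 13.02 and 13.01 at 6 h to 12.78, 12.94 and 12.75 (-0.21 ± 0.07, 1.16-fold lower, adjusted p = 0.0221). Its call was lost without DMSO replicate 3 (adjusted p = 0.0795), berberine 12 h replicate 1 (0.0806) or berberine 12 h replicate 3 (0.0875). The same held with centring on the median (adjusted p = 0.0515) and without the intensity trend (0.0656). Usp14, a deubiquitinase of the regulatory particle, differed by 0.25 ± 0.12 (adjusted p = 0.137) and Sem1, its smallest subunit, by 0.04 (adjusted p = 0.688). Of ubiquitin itself and its activation only 3 of 8 genes could be tested. Of these, Ube2k, a ubiquitin-conjugating enzyme, was 0.39 higher at 12 h (adjusted p = 0.00100), though the mean of its probe sets differed by -0.52 (adjusted p = 0.0828). Uba6, a ubiquitin-activating enzyme, was 0.28 higher (adjusted p = 0.0444), a call lost without DMSO replicate 1 (0.200) or 3 (0.0718), berberine 3 h replicate 1 (0.0517), berberine 6 h replicate 2 (0.0506), or any single 12 h array (0.0935, 0.127 and 0.0604 without replicates 1, 2 and 3). The Uba6 call was lost under 11 of 21 alternatives, among them the mean of its probe sets (0.16, adjusted p = 0.316). Ube2d3, another conjugating enzyme, differed by 0.04 (adjusted p = 0.825).

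**Figure D5:**
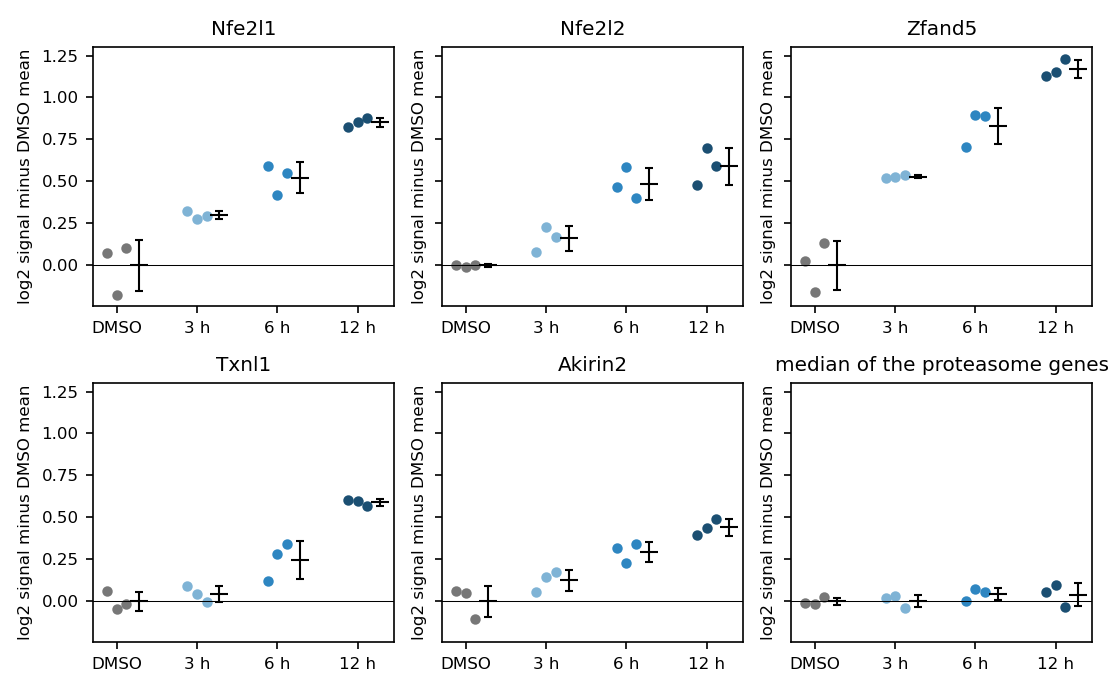
Log2 signal minus the DMSO mean on each array (points), with the mean and SD (bar), for Nfe2l1, Nfe2l2, Zfand5, Txnl1 and Akirin2, and in the last panel the median over the 47 proteasome genes on the same scale. The 12 h means of the 5 genes are 0.85, 0.59, 1.17, 0.59 and 0.44, while the proteasome median on the 12 h arrays is 0.05, 0.10 and -0.03.

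NRF1 and NRF2 bind antioxidant response elements, so RefSeq promoter windows (GRCm38.p6, 250 bases before to 50 after a start) were searched on both strands for the element's core, TGACNNNGC. Windows were found for 41 of the 49 genes, 44 windows in all; Psma8, Psmb1, Psmb2, Psmb7, Psmc3, Psmd3, Psmd7 and Psmg2 were not matched. The core occurred in 6 of 44 windows (13.6%), against 12.4% of all 32851 windows. A match describes the letters only. The 6 sites are shown so that they can be set beside the measured changes, each 5′ to 3′ on the strand that reads the core, which is in capitals, with up to 10 bases on each side within the window.
Psmb5: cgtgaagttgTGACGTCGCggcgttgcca
Psmb6: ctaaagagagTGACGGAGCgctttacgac
Psmc6: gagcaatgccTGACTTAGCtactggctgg
Psmd12: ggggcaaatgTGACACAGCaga
Psmd9: atctagccggTGACCCCGCccacttccaa
Psme4: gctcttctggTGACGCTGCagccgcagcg

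These lie at chr14:54618024-54618052 (minus strand) for Psmb5, chr11:70525338-70525366 (plus) for Psmb6, chr14:45329587-45329615 (minus) for Psmc6, chr11:107479278-107479299 (minus) for Psmd12, chr5:123228149-123228177 (plus) for Psmd9 and chr11:30771758-30771786 (minus) for Psme4. Psmb6 and Psme4 have the core 9 and 7 bases before the start, and Psmc6 227 bases before it. Of the 6 genes only Psmc6 was called at 12 h, at 0.48 in 1 of its 3 probe sets; the others differed by 0.13, 0.08, -0.12, 0.00 and 0.09 in the order Psmb5, Psmb6, Psmd12, Psmd9 and Psme4.

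Other motifs were searched in the same windows. The CCAAT box was in 16 of 44 (36.4%), against 37.4% of all windows, among them those of Psma1, which fell, and of Psmb9, Psmc2 and Psme3, which rose. The core of the interferon-stimulated response element, GAAA, any 2 bases and GAAA, was in 5 of 44 (11.4%), against 3.44% of all windows: Psmb3, Psmd4, Psmd9, Psme1 and Psmg4, of which Psmd4 rose at 6 h and none was called at 12 h. These letters are not in the windows of Psmb8, Psmb9 and Psmb10. The amino acid response element TGATGNAAN was in 1 window (2.27%, Psmd13), against 3.95% of all windows.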

How the data were processed

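The deposited values are log2 signals per probe set, and the submitters' processing notes name MAS5, with no version. On every array the mean of the linear values, with 2% trimmed at each end, is 500.004, so the arrays had been scaled to one level by the authors. The series holds 45101 probe sets, 64 of them controls, and 34945 others carry a single symbol in the platform annotation. A probe set was kept if at least 3 of 12 arrays reached 5.77 log2, the median of all values on the array set (25053 probe sets). The kept probe set with the highest mean stood for its gene, and one ending in _x_at was used only where no other was kept. limma 3.58.1 in R 4.3.3 was run on the 12 arrays together with 1 mean for each group, which leaves 8 residual degrees of freedom; the moderated tests (eBayes) let the prior variance follow intensity and were two-sided, with Benjamini-Hochberg adjustment over 12136 genes and calls at 0.05. The number of arrays limits the precision. Fold changes are 2 to the power of the log2 difference. Promoter windows were read from RefSeq (GRCm38.p6). The fit was tested on simulated data.

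The genes, lists and tests were chosen with earlier results of these data known. Values on every array are given for the genes with the 3 largest rises and falls among those called in each comparison with DMSO, the largest 12 h difference in each role, the inducible catalytic subunits and their partners, Psme1 and Psmg1 to Psmg4; outside the naming rule, values are given for Nfe2l1, Nfe2l2, Pomp, Usp14 and Sem1 and for the genes with the 3 largest 12 h differences in each list. Psme3ip1 was set apart after its symbol was seen in the annotation. Values of Vcp are given in addition, as the gene of its list that fell at 12 h. Alternatives tried were no filter, a stricter filter, the mean of the kept probe sets, quantile normalization, centring on the median, no intensity trend, dim values raised to the threshold, only the 2 groups compared, the replicate number as a block, each probe set on its own, and leaving out each array. The replicate numbers did not pair the arrays.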

Additional observations from a re-analysis of the deposited data

Results flagged for a closer look

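For 7 genes the difference from DMSO was not the same at all berberine times, by limma's test of the difference between times. Psmc6 was higher at 6 h than at 3 h by 0.23 on the log2 scale (adjusted p = 0.0472), higher at 12 h than at 6 h by 0.21 (adjusted p = 0.0429), and higher at 12 h than at 3 h by 0.45 (adjusted p = 4.37e-05), in the brightest of 3 probe sets. Psma1 differed by -0.37 between 12 h and 6 h (adjusted p = 0.00133) and by -0.41 between 12 h and 3 h (adjusted p = 0.00013). Between 12 h and 3 h, Psmb7 differed by 0.27 (adjusted p = 0.0274), Psmb9 by 0.55 (adjusted p = 0.00882), Psmc2 by 0.34 (adjusted p = 0.00146), Psme3 by 0.52 (adjusted p = 0.000412) and Psmd1 by -0.20 (adjusted p = 0.0181). The Psmc6 calls between neighbouring times depended on single arrays. The count from 3 h to 6 h was 0 without any single 3 h or 6 h array, DMSO replicate 1, or berberine 12 h replicate 1 or 2. The count of rises from 6 h to 12 h was 0 without any single 6 h or 12 h array, DMSO replicate 1, or berberine 3 h replicate 1 or 2, while 1 fall was counted without each of the 12 arrays in turn.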

How the results depend on the processing

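Arrays in triplicate and a single probe set per gene limit these results. With the mean of the kept probe sets, 2 genes were called at 6 h, the medians were -0.013 at 6 h and -0.041 at 12 h, and the counts between times were 0 from 3 h to 6 h, 0 from 6 h to 12 h and 3 from 3 h to 12 h. In that setting Psmc6 differed from DMSO by -0.067 at 6 h and -0.032 at 12 h, Psmc2 by -0.054 at 12 h and Ube2k by -0.52 at 12 h, against the reported direction. Counting a gene only where all its kept probe sets were called in 1 direction gave 1 at 6 h, 7 at 12 h, 0 from 3 h to 6 h, 0 from 6 h to 12 h and 3 from 3 h to 12 h. Without the intensity trend 1 was called at 6 h and 8 at 12 h, with 0 from 3 h to 6 h and 1 from 6 h to 12 h; the calls lost were those of Psmb9, Psmd3 and Psmd4 at 6 h and of Psma4, Psmd6 and Psmd8 at 12 h. With only the 2 groups compared, 2 were called at 6 h, 9 at 12 h and 0 from 3 h to 6 h. The calls lost against DMSO were those of Psmd3 and Psmd4 at 6 h and of Psma4 and Psmd8 at 12 h. Without a filter the counts were 0 from 3 h to 6 h and 1 from 6 h to 12 h, and with centring on the median 1 from 6 h to 12 h. Quantile normalization gave 6 at 6 h, 4 higher and 2 lower. The replicate numbers share only a number: the deviations of same-numbered arrays from their group means correlated at -0.04 to 0.03 over 18 pairs, and by these deviations 4 of 12 arrays correlated best with their own number. With the replicate block the counts were 0 at 3 h, 5 at 6 h, 12 at 12 h, 1 from 3 h to 6 h, 3 from 6 h to 12 h and 7 from 3 h to 12 h, and 8 by the F test. Leaving out each array in turn gave 0 at 3 h, 1 to 4 at 6 h, 8 to 12 at 12 h, 0 to 1 from 3 h to 6 h, 1 to 3 from 6 h to 12 h, 5 to 8 from 3 h to 12 h and 6 to 9 by the F test, with medians of -0.01 to 0.03 at 3 h, 0.03 to 0.07 at 6 h and 0.019 to 0.078 at 12 h. The 12 h calls of Psma1, Psmb9, Psmb10 and Psmd1 held under all 21 alternatives run on single genes. Psmb9, Psmb10 and Psmd1 have 1 probe set each, so the mean of the kept probe sets could not change their differences. Psma1 has 4 kept probe sets.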
